A study of Homo sapiens with 4 samples.

Results

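The AP-1 and EGR1 immediate early factors were examined as a set of 9 transcription factor genes, FOS, FOSB, FOSL1, FOSL2, JUN, JUNB, JUND, ATF3 and EGR1. The genes were taken by name, and each matched 1 of the 58735 Ensembl gene identifiers of the study. All 9 were among the 14523 genes tested, which had a mean of at least 1 FPKM (fragment counts divided by exon length and by library size) over the 4 libraries. HCT116 is an established human colorectal cancer (CRC) cell line. The cells were transfected for 48 h with a control small interfering RNA (siRNA) in 2 libraries, or with siRNA against KIF26B in 2 libraries, and each pair was numbered as replicates 1 and 2. Both groups were grown in the same medium with serum, no other agent or genetic change is named for either, and which of the siRNA sequences against KIF26B entered each library is not given in the sources used here. The column headers of the KIF26B siRNA libraries are not numbered in the plain way of the controls, so these libraries may differ in siRNA. The comparison asked which transcripts differed in CRC cells when KIF26B, a member of the kinesin family of motor proteins, was targeted.

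AP-1 is a family of dimers of basic leucine zipper proteins. JUN proteins pair with each other or with FOS proteins, whereas FOS proteins need a JUN partner, and the dimers bind the DNA motif TGACTCA or the related TGACGTCA. ATF3 belongs to a neighbouring branch of the same protein class and also pairs with JUN proteins. EGR1 is a zinc finger protein that binds GC-rich motifs. FOS, JUN, FOSB and EGR1 are classic immediate early genes, which are transcribed within minutes of growth factor or stress signals through kinases such as ERK and JNK, while JUND and FOSL1 transcripts are often held at a steadier level in cancer cells. AP-1 activity downstream of RAS signalling is well known in colorectal cancer cells.

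RefSeq promoter windows (GRCh38.p14) were found for 8 of the 9 genes, and FOSL1 had no entry. The 250 bases before the start site are shown for EGR1 and JUN, which were low in 1 KIF26B siRNA library, and for FOSB and JUND, which were higher in both. The windows are chr5:138465229-138465478 on the plus strand for EGR1, chr1:58784048-58784297 on the minus strand for JUN, chr19:45467746-45467995 on the plus strand for FOSB and chr19:18281623-18281872 on the minus strand for JUND. Each is written 5′ to 3′ in the direction of the gene, and capitals mark matches to the motifs given after the sequences.
EGR1: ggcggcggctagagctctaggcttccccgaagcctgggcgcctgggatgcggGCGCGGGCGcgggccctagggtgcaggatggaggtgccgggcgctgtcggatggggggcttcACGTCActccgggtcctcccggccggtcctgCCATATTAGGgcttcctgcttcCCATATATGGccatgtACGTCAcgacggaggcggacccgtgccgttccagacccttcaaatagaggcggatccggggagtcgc
JUN: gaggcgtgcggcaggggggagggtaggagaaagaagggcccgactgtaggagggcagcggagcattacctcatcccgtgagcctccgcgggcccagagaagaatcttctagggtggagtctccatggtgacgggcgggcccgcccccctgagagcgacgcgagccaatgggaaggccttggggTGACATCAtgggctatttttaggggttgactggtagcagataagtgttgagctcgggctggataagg
FOSB: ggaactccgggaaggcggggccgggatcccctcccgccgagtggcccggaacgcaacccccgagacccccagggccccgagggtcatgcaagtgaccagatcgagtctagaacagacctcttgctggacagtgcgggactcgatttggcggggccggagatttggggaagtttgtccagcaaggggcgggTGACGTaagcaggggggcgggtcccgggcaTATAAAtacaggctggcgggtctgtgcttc
JUND: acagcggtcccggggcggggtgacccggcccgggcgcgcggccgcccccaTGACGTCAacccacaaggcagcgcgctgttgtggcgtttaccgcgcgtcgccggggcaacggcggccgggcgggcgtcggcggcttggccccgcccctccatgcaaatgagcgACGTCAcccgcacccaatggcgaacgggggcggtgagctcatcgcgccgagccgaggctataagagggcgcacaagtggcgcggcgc

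The motifs searched on both strands were TGACTCA, TGACGTCA, its variant TGACATCA, the hexamer TGACGT (which every TGACGTCA also holds), the CArG box bound by SRF, the EGR motif GCGNGGGCG and TATAAA. The EGR1 window held 2 CArG boxes, whose first bases lay at -105 and -83 from the start site. It also held the reverse complement of TGACGT at -136 and -67, and 1 EGR motif at -198. A CArG box was found in 1 of 8 members and in 1.16% of 35116 promoter windows of the same length. The EGR motif was likewise found in 1 of 8 members, beside 8.41% of all windows. In the JUN window, TGACATCA began at -67, and this octamer was present in 2 of 8 members (JUN and ATF3) against 2.37% of all windows. In FOSB, TGACGT began at -60 and TATAAA at -30. The JUND window held TGACGTCA at -200 and a further TGACGT match at -87, and TGACGTCA was in 1 of 8 members and 1.65% of all windows. TGACGT was in 5 of 8 members against 7.1% of windows, TATAAA in 4 of 8 against 10.7%, and TGACTCA in 0 of 8 against 4.2%. ATF3 had 2 windows and was counted where either matched, whereas the share of all windows counts each one singly. Its TATAAA was at -230 in the second window only. These matches describe the letters of the windows only.

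The totals to which the authors scaled the libraries were inferred from the FPKM values, at 18068934 to 24673739 fragments. The recovered reads were 1.0 and 1.01 times this total in the controls. They were 1.01 and 1.07 times it in KIF26B siRNA replicates 1 and 2. The share of reads on mitochondrial genes was 6.83% and 6.89% in the controls, and 9.68% and 8.18% in KIF26B siRNA replicates 1 and 2. Of the colorectal epithelial markers, 8 of 10 were tested, and the 10 summed to 1780 and 1790 FPKM in the controls and 1630 and 1710 FPKM with KIF26B siRNA, led by the keratins KRT19 (842 to 951 FPKM) and KRT8 (350 to 485 FPKM). None of the 8 passed the thresholds used below, and their median log2 fold change was -0.21. VIL1 was at 0.008 to 0.0368 FPKM and CDX1 was at 0. The 7 fibroblast markers summed to 4.87 to 8.76 FPKM, nearly all from COL1A1, the only one tested, which was not called, and the 7 leukocyte and endothelial markers that were matched summed to 0.503 to 0.726 FPKM, with none tested and CD3E at 0. The targeted gene KIF26B (chromosome 1, 245154985 to 245709432) was barely expressed. It had 31 and 73 reads in the controls, 43 in KIF26B siRNA replicate 1 and 8 in replicate 2, or 0.11, 0.205, 0.14 and 0.0307 FPKM. For KIF26B, the controls thus bracketed the library labelled KIF26B siRNA replicate 1, and only the library labelled replicate 2 lay below them. KIF26B did not reach the filter and was not tested. The level of each of the 9 factors is therefore given below for both KIF26B siRNA libraries.

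None of the 9 genes changed past the thresholds of the study, which are a P under 0.05 before adjustment together with an absolute log2 fold change over 1. The study applied these thresholds with DESeq2, so the calls given here are not its own. They were made with limma, a 2-sided moderated test, on log2(FPKM + 1), a scale that understates the fold change of genes with few reads. Of all genes tested, 88 (0.606%) were called lower and 118 (0.813%) higher. No gene reached an adjusted p below 0.05 by limma (the smallest was 0.242) or by limma-voom on recovered reads, while 2385 genes (16.4%) had an unadjusted P below 0.05. With 2 libraries against 2, an exact permutation test of a single gene cannot give a p below 0.333. The labels do not say whether replicates were separate cultures, so the tests measure the spread between these libraries, and less RNA per cell cannot be told apart from fewer cells of a kind. At an unadjusted P below 0.05 alone, FOSL2 was 1 of 9 members on the lower side, beside 8.68% of all genes, and 0 of 9 were on the higher side, beside 7.74%. This count moved with the processing. With no filter on low values (beside 6.31% of genes), FOS and JUNB joined FOSL2, for 3 of 9 on the lower side. Scaling by total recovered reads gave the same 3 of 9 (beside 10.3%). With at least 1 FPKM in every library the same 3 were lower (beside 9.9%), but FOSB was not in that fit. FOSB was the 1 of 9 on the higher side with a pseudocount of 0.1 (beside 7.53%), median-of-ratios scaling (beside 8.39%) and limma-voom (beside 7.29%). On the lower side, the pseudocount of 0.1 gave FOSL2 and FOS (2 of 9, beside 8.1%). Median-of-ratios scaling gave FOSL2 (1 of 9, beside 8.08%), and limma-voom gave FOSL2 and JUNB (2 of 9, beside 9.23%). A limma variance trend gave the same 2 of 9 lower (beside 9.08%) and 0 of 9 higher (beside 7.87%). Leaving out KIF26B siRNA replicate 1 gave 5 of 9 lower and 3 of 9 higher, beside 23.7% and 22.9% of genes, and leaving out replicate 2 gave 3 of 9 and 0 of 9, beside 22.4% and 17.5%. Leaving out control replicate 1 gave 0 of 9 in both directions, beside 1.67% lower and 1.93% higher, as did leaving out control replicate 2, beside 1.61% and 1.82%. Both KIF26B siRNA libraries lay below both controls for 4 of 9 members (FOS, FOSL2, JUN and JUNB), against 27.8% of all genes, and above both controls for 2 of 9 (FOSB and JUND), against 24.9%. The median log2 fold change was -0.31 over the 9 members and -0.01 over all genes tested.

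**Figure D1:**
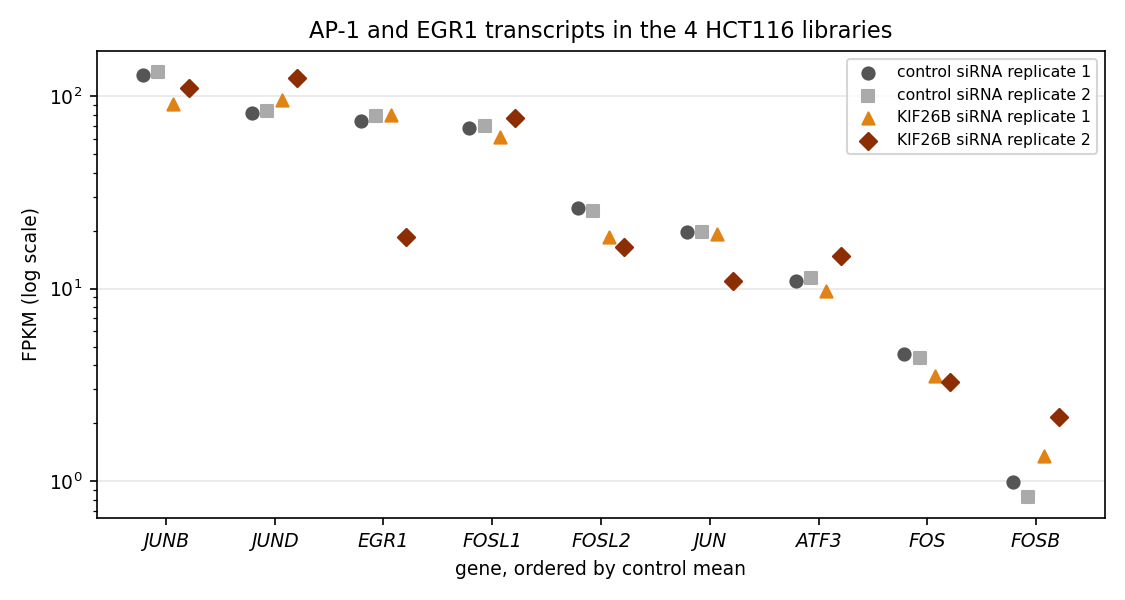
FPKM (log axis) of the 9 genes in each of the 4 libraries, 1 symbol per library, with genes ordered by their control mean. The controls nearly coincide for every gene, and EGR1 in KIF26B siRNA replicate 2, at 18.5 FPKM, stands far below the other 3 libraries at 74.1 to 79.3 FPKM.

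In the control cells the transcript levels of the set, compared per exon length, spanned from JUNB at 131 ± 3.0 FPKM to FOSB at 0.911 ± 0.11 FPKM (mean ± SD, n = 2). The order was JUNB, JUND, EGR1, FOSL1, FOSL2, JUN, ATF3, FOS and FOSB, and no neighbours in this order overlapped between the 2 control libraries. JUNB, JUND, EGR1 and FOSL1 lay above at least 96.7% of the genes tested in the control libraries, whereas FOS lay above 43.3% and 42%. In the KIF26B siRNA libraries JUND came first and JUNB second, although their ranges overlapped. EGR1 was the third of the 9 genes in replicate 1 and the fourth in replicate 2, and JUN moved from the fifth to the seventh place between these libraries. FOS and FOSB held the last places in all 4 libraries.

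EGR1 (ENSG00000120738, chromosome 5, 138465479 to 138469303), the zinc finger factor, had the widest spread of the set. It was at 74.1 and 78.6 FPKM in the controls, 79.3 FPKM in KIF26B siRNA replicate 1 and 18.5 FPKM in replicate 2. Replicate 1 was thus just above both controls, and replicate 2 was far below them, so that the groups overlapped. These levels rested on 4567, 6082, 5313 and 1050 reads in the same order. The 95% Poisson intervals were 77.1 to 81.4 FPKM in replicate 1 and 17.4 to 19.7 FPKM in replicate 2, and such intervals cover counting error only. Against the control mean, EGR1 was at 1.04 times in replicate 1 and at 0.243 times in replicate 2. Between the groups, the log2 fold change was -0.97 (SE 0.73, 95% CI -2.99 to 1.06), with adjusted p = 0.55 by limma.

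The gap between both KIF26B siRNA libraries was -2.04 for EGR1 on the log2 scale, replicate 2 minus replicate 1. It was at the 99.7th percentile of such gaps, and 48 of 14523 genes (0.331%) had a larger one. Over all genes the median absolute gap was 0.28 between the KIF26B siRNA libraries and 0.073 between the controls, and 5.41% and 1.77% of genes, respectively, had a gap beyond 1. Replicate 1 within 0.25 of the control mean together with replicate 2 more than 1 below it was found for 52 genes (0.358%), EGR1 included. The genes nearest to EGR1 over the 4 libraries, among those with a mean of at least 5 FPKM, were RPE65, PSMD3 and ASH2L, by the Euclidean distance of log2(FPKM + 1) less the control mean. RPE65, a retinoid isomerase gene, was 0.401 away, with 25.5 and 27.3 FPKM in the controls and 21.6 and 7.08 FPKM with KIF26B siRNA. PSMD3, a subunit of the proteasome cap, was 0.422 away and was at 49.7, 52.3, 47.1 and 16.2 FPKM. ASH2L, a subunit of histone H3 methyltransferase complexes, was 0.545 away and was at 10.6, 10.1, 7.42 and 2.36 FPKM. The 3 were chosen for their likeness to EGR1 over these same libraries, so their low level in replicate 2 is part of the choice.

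Without the library labelled KIF26B siRNA replicate 1, EGR1 passed the thresholds with a log2 fold change of -1.99 and was the 1 of 9 members called lower, beside 1.33% of all genes, while 0 of 9 were called higher, beside 2.3%. Without replicate 2, its log2 fold change was 0.05, and 0 of 9 members were called lower or higher, beside 1.54% and 1.08% of all genes. A fit that leaves out a KIF26B siRNA library assumes that the single library left varies like the controls. Without replicate 1, the adjusted p was below 0.05 for 8.59% of genes on the lower side and 8.68% on the higher side. Among the members these were EGR1, JUN and FOSL2 on the lower side (each with adjusted p = 0.0463 by limma) and FOSB and JUND on the higher side (adjusted p = 0.0478 and 0.0464 by limma). Without replicate 2, the smallest adjusted p over all genes was 0.0606 by limma.

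**Figure D2:**
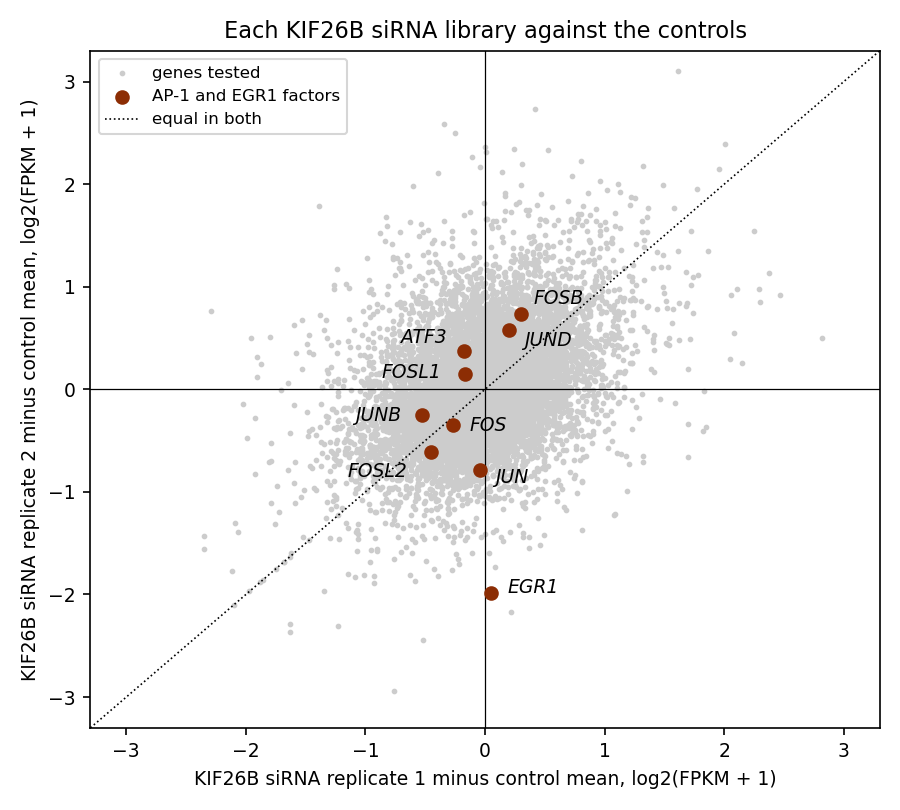
Difference from the control mean on the log2(FPKM + 1) scale in KIF26B siRNA replicate 1 (horizontal axis) and replicate 2 (vertical axis), for the 14523 genes tested (grey) and the 9 factors (brown). EGR1 lies at 0.05 and -1.99 and JUN at -0.04 and -0.79, far from the dotted line of equal values, whereas FOS, at -0.27 and -0.35, lies close to it.

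Among the JUN genes, which supply the obligate partner of AP-1, JUNB and JUN were lower and JUND was higher in the KIF26B siRNA libraries, and none passed the thresholds. JUN (ENSG00000177606, chromosome 1, 58780791 to 58784047) encodes c-Jun, a strong activator of transcription. It was at 19.6 FPKM in both controls, 19.1 FPKM in KIF26B siRNA replicate 1 and 10.9 FPKM in replicate 2. Replicate 1 was below the controls by little, at 0.972 times their mean, and replicate 2 was at 0.557 times. Its log2 fold change was -0.41 (SE 0.29, 95% CI -1.21 to 0.38), with adjusted p = 0.515 by limma. Its gap between the KIF26B siRNA libraries was -0.75, at the 88.2nd percentile of all genes.

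JUNB (ENSG00000171223, chromosome 19, 12791486 to 12793315), a JUN protein that restrains c-Jun in some settings, was at 129 and 133 FPKM in the controls and at 90.4 and 110 FPKM in KIF26B siRNA replicates 1 and 2. The groups did not overlap, and here replicate 1 was the lower one. The log2 fold change was -0.39 (SE 0.15, 95% CI -0.80 to 0.02), with adjusted p = 0.312 by limma. Exons of JUNB overlap those of HOOK2 on the opposite strand, and reads of both cannot be told apart where counting did not use the strand, which is not stated. HOOK2 was at 14, 14.2, 14 and 20.9 FPKM, and it was highest in KIF26B siRNA replicate 2.

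JUND (ENSG00000130522, chromosome 19, 18279694 to 18281622), the JUN gene usually expressed in resting cells too, was at 81.5 and 83.0 FPKM in the controls and at 94.8 and 124 FPKM with KIF26B siRNA. Both KIF26B siRNA libraries were above both controls, at 1.15 and 1.5 times the control mean. Between the groups, the log2 fold change was 0.39 (SE 0.17, 95% CI -0.08 to 0.87), with adjusted p = 0.355 by limma. Summed over the JUN genes, the level was 230 and 236 FPKM in the controls and 204 and 244 FPKM in KIF26B siRNA replicates 1 and 2, so that the summed ranges overlapped. JUNB made up 56% and 56.5% of the sum in the controls and 44.3% and 45% in the KIF26B siRNA libraries. JUND made up 35.4% and 35.2% in the controls and 46.4% and 50.6% in the KIF26B siRNA libraries. The share of JUN was 8.54% and 8.3% in the controls and 9.33% in replicate 1, but 4.46% in replicate 2. These shares are descriptions of the same values and were not tested.

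**Figure D3:**
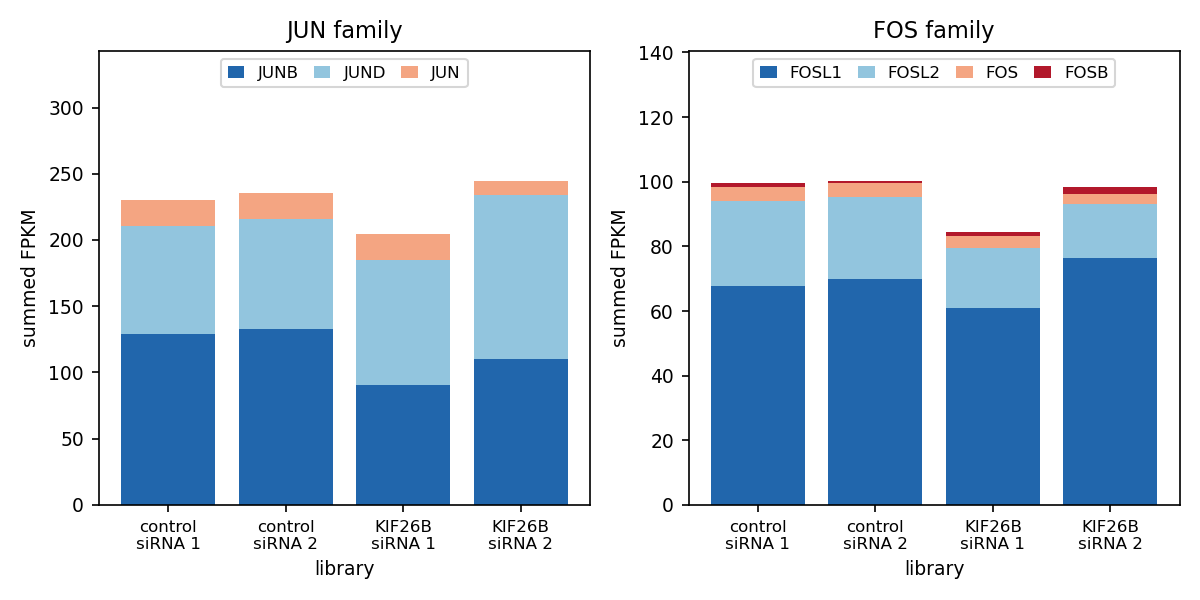
Summed FPKM of the JUN genes (left) and the FOS genes (right) in each library, with 1 coloured segment per gene and both axes starting at 0. In the KIF26B siRNA libraries JUND takes 46.4% and 50.6% of the JUN sum, against 35.4% and 35.2% in the controls, and FOSL1 is the main part of the FOS sum in all 4 libraries.

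Among the FOS genes, FOSL2 and FOS were lower in both KIF26B siRNA libraries, FOSB was higher in both, and FOSL1 was split between them. FOSL2 (ENSG00000075426, chromosome 2, 28392858 to 28417317) encodes FRA-2, which lacks the strong activation domain of c-Fos. It was at 26.1 and 25.4 FPKM in the controls and at 18.6 and 16.5 FPKM with KIF26B siRNA, which did not overlap the controls. From 25.8 ± 0.53 to 17.6 ± 1.5 FPKM (SD, n = 2 each), the log2 fold change was -0.53 (SE 0.12, 95% CI -0.87 to -0.19). This was the smallest unadjusted P of the set, 0.0124, with adjusted p = 0.248 by limma. Among the 3 genes nearest to FOSL2 by the same distance were PCYOX1 (0.032), an enzyme of prenylated protein breakdown, and EGFR (0.049), the epidermal growth factor receptor. EGFR was at 26.6, 27, 19.5 and 16.8 FPKM in the same order of libraries, and PCYOX1 at 16.3, 15.4, 11.6 and 10 FPKM. Both were chosen for their likeness to FOSL2 over these same libraries, so their lower level with KIF26B siRNA is part of the choice.

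FOS (ENSG00000170345, chromosome 14, 75278828 to 75282230), which encodes c-Fos, was at 4.56 and 4.34 FPKM in the controls and at 3.53 and 3.28 FPKM with KIF26B siRNA. The groups did not overlap, and each held together closely, with 4.45 ± 0.16 against 3.4 ± 0.17 FPKM (SD, n = 2 each). By group, its log2 fold change was -0.31 (SE 0.11, 95% CI -0.62 to 0.01), with adjusted p = 0.307 by limma. FOS rested on 192 to 347 reads per library.

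FOSB (ENSG00000125740, chromosome 19, 45467996 to 45475179), the least expressed of the set, was at 0.991 and 0.832 FPKM in the controls and at 1.35 and 2.16 FPKM with KIF26B siRNA. Both KIF26B siRNA libraries were above both controls, at 1.48 and 2.37 times the control mean. Its log2 fold change was 0.51 (SE 0.19, 95% CI -0.02 to 1.04), with adjusted p = 0.309 by limma. FOSB had 108 and 114 reads in the controls and 160 and 217 reads with KIF26B siRNA. Since its level is near the added 1 FPKM, its log2 fold change was larger on other scales, at 0.84 with a pseudocount of 0.1 and 0.90 by limma-voom on the reads.

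FOSL1 (ENSG00000175592, chromosome 11, 65892049 to 65900545) encodes FRA-1, which is often abundant in invasive carcinoma cells. It was at 67.8 and 69.8 FPKM in the controls and at 61.0 and 76.5 FPKM in KIF26B siRNA replicates 1 and 2, on either side of the controls. The log2 fold change was -0.01 (SE 0.16, 95% CI -0.45 to 0.43), with adjusted p = 0.979 by limma. The FOS genes summed to 99.5 and 100 FPKM in the controls and to 84.5 and 98.4 FPKM with KIF26B siRNA. FOSL1 was 68.1% and 69.5% of the sum in the controls and 72.2% and 77.7% in the KIF26B siRNA libraries, while FOSL2 was 26.3% and 25.3% in the controls and 22% and 16.8% in the KIF26B siRNA libraries.

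ATF3 (ENSG00000162772, chromosome 1, 212565407 to 212620777), a stress-induced factor that can repress or activate as a dimer, was at 10.9 and 11.4 FPKM in the controls. It was at 9.71 FPKM in KIF26B siRNA replicate 1 and 14.7 FPKM in replicate 2, so that the controls lay between them. Between the groups, the log2 fold change was 0.10 (SE 0.22, 95% CI -0.53 to 0.72), with adjusted p = 0.851 by limma. ATF3, FOSL1 and EGR1 were the 3 members for which the KIF26B siRNA libraries lay on opposite sides of the control mean.

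Genes around the AP-1 and EGR1 factors were read from 10 lists fixed by name, and the calls in each stand beside 0.606% of all genes called lower and 0.813% called higher. Of 12 other bZIP partners, 7 were tested and 0 passed the thresholds, 4 had a log2 fold change below 0, and the median was -0.04, against -0.01 over all genes. The most expressed of them, the small MAF proteins MAFK and MAFG, were at 24.6 to 25.7 and 21.5 to 22.3 FPKM in the controls, respectively. In KIF26B siRNA replicates 1 and 2, MAFK was at 20.5 and 41.5 FPKM and MAFG at 23.5 and 32.3 FPKM, both highest in replicate 2. BATF and MAF were at 0 in all 4 libraries.

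Upstream of the factors, 21 of 21 kinases, SRF and ETS cofactors were tested, and 0 passed the thresholds. A log2 fold change below 0 was found for 16 of 21, with a median of -0.25, and 4 had an unadjusted P below 0.05, all on the lower side. SRF, which binds the CArG boxes shown for EGR1, was at 15.4 and 16.8 FPKM in the controls and 14.6 and 16 FPKM with KIF26B siRNA, with a log2 fold change of -0.07. ELK3, an ETS partner of SRF and the most expressed of the list, was at 44 FPKM in both controls and 30 and 40.7 FPKM with KIF26B siRNA. MAP2K2, a kinase that activates ERK, was at 26.6 and 27.3 FPKM in the controls and 28 and 31.8 FPKM with KIF26B siRNA. Of 8 regulators of AP-1 protein, 0 passed the thresholds and 7 had a log2 fold change below 0, with a median of -0.12. The most expressed were MEN1, a binding partner of JUND, at 18.2 to 23.5 FPKM, and ITCH, a ubiquitin ligase for JUN, at 17.9 to 21.1 FPKM.

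Among 33 other immediate early genes, 29 were tested, 1 was called lower and 1 higher (0.606% and 0.813% of all genes), and the median was -0.05. CCN2, a matricellular protein, was the lower one, with 5.21 and 5.18 FPKM in the controls and 1.02 and 1.04 FPKM with KIF26B siRNA, a log2 fold change of -1.61 with adjusted p = 0.242 by limma. NR4A2, an orphan nuclear receptor, was the higher one, with 5.39 and 5.04 FPKM in the controls and 12.9 and 13 FPKM with KIF26B siRNA, a log2 fold change of 1.17 with adjusted p = 0.242 by limma. MYC, the growth regulator, was at 78.5 FPKM in both controls and 146 and 158 FPKM with KIF26B siRNA, and its log2 fold change of 0.94 was just inside the threshold. Both KIF26B siRNA libraries stood apart from the controls in the same direction for these 3 genes, unlike EGR1. EGR2, EGR3 and EGR4, the relatives of EGR1, were below the filter and not tested. EGR2 was at 0.76 and 1.02 FPKM in the controls and 0.749 and 0.33 FPKM in KIF26B siRNA replicates 1 and 2. In the same order, EGR3 was at 0.955, 1.12, 1.14 and 0.764 FPKM, and EGR4 at 0.193, 0.256, 0.217 and 0.303 FPKM.

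Of 28 known AP-1 target genes, 17 were tested, 2 were called lower and 0 higher (0.606% and 0.813% of all genes), and the median was -0.05. CCND1, which encodes cyclin D1, was at 358 and 361 FPKM in the controls and 107 and 187 FPKM with KIF26B siRNA (log2 fold change -1.34). ITGA2, the collagen-binding integrin subunit, was at 53.6 and 54.3 FPKM in the controls and 28.5 and 17.4 FPKM with KIF26B siRNA (log2 fold change -1.24). Of 12 EGR1 cofactors and target genes, 11 were tested, 1 was called lower and 0 higher, beside the same shares of all genes, and the median was -0.15. THBS1, a secreted matrix protein, was the lower one, with 4.46 and 4.58 FPKM in the controls and 1.31 and 1.5 FPKM with KIF26B siRNA (log2 fold change -1.20). THBS1 was thus low in both KIF26B siRNA libraries, and its relation to the level of EGR1 was not tested. NAB2, a corepressor that EGR1 itself induces, was at 31.4 and 33 FPKM in the controls and at 36.7 and 35.4 FPKM with KIF26B siRNA, with a log2 fold change of 0.16 and adjusted p = 0.527 by limma.

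Since handling of cells can induce immediate early genes, 14 heat shock and handling stress genes were read beside them. Of 13 tested, 0 were called lower and 1 was called higher (0.606% and 0.813% of all genes), their median was 0.09, and the summed level of the list was 901 and 917 FPKM in the controls and 951 and 914 FPKM with KIF26B siRNA. The one called was TRIB3, a pseudokinase of the amino acid and unfolded protein response, at 3.77 and 5 FPKM in the controls and 8.82 and 16.3 FPKM with KIF26B siRNA (log2 fold change 1.29). The part of these genes, and of the mitochondrial share, in the values of the 9 factors was not tested.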

How the data were processed

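Poly(A) RNA of the 4 libraries was sequenced as paired-end reads and, per the labels' processing notes, aligned with HISAT2 2.0.5 and counted with featureCounts 1.5.0-p3 on hg38, whereas the Methods name another build, and the annotation and strand setting are not given in the sources used here. The authors deposited 1 FPKM value per gene and library, scaled to exon length and to a per-library fragment total. Whole reads were recovered for 99.3% of the 34638 genes above 0 (tolerance 0.002 reads, or a relative one for high counts). For some genes, such as JUNB, several lengths gave whole reads. An annotated length was taken if it was among them. Otherwise the shortest was taken, or a small multiple of it that was close to the annotated length. For genes with very few reads, the length nearest to the annotated one was taken. The reads are therefore approximate.

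Identifiers were matched to GENCODE symbols (56513 of 58735), and PECAM1 was not matched. Coordinates and promoters are those of RefSeq GRCh38.p14. The groups were compared with limma 3.58.1 (R 4.3.3) on log2(FPKM + 1), for genes whose 4 libraries averaged 1 FPKM or more, with no covariates and Benjamini-Hochberg adjustment over all 14523 genes. The thresholds are those of the study. The fit was tested on simulated data. The alternatives were a replicate block, other filters, a pseudocount of 0.1, other scalings, a variance trend, limma-voom on recovered reads and leaving out each library.

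The members and lists were chosen with earlier results of these data known. The genes named are the 9 members, KIF26B, MYC, SRF and NAB2, up to 4 genes of each list past the thresholds or, where none passed, the 2 most expressed, and the 3 genes nearest to EGR1 and to FOSL2, the members with the largest absolute log2 fold changes (1 of these is not reported here). COL1A1, CD3E, VIL1, CDX1, BATF, MAF, EGR2 to EGR4, HOOK2 and the genes of the closing observations were named after their values were seen. Figures were drawn with matplotlib 3.10.9 in Python 3.11.15.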

Additional observations from a re-analysis of the deposited data

How the results depend on the processing

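With 2 libraries in each group, no alternative gave a gene an adjusted p below 0.05 (limma; smallest 0.156 to 0.391), and none of the 9 members passed the thresholds. The calls over all genes, 88 lower and 118 higher, became 52 and 69 with at least 1 FPKM in every library (FOSB was not in that fit), 203 and 217 with a pseudocount of 0.1, and 381 and 375 with limma-voom. Leaving out a library gave 123 to 223 lower and 156 to 334 higher, and 0 to 1 members lower. That 1 member was EGR1 without KIF26B siRNA replicate 1, at -1.99. The log2 fold change of EGR1 reversed without KIF26B siRNA replicate 2 (range of the leave-outs -1.99 to 0.05), as did that of ATF3 (-0.18 to 0.37). That of FOSL1 reversed with median-of-ratios scaling (0.01), without control siRNA replicate 2 (0.01) and without KIF26B siRNA replicate 1 (range -0.17 to 0.15). FOSL1 lies so near 0 that its sign has no weight, and beyond the leave-outs' own construction the cause was not tested. The deviations of same-numbered libraries from their group means had a correlation of 0 across genes. The controls differed little (median absolute gap 0.073), so this value cannot decide whether the numbers pair the libraries. At an unadjusted P below 0.05 alone, the alternatives that kept all libraries had 1 to 3 of 9 members on the lower side. They had 0 to 1 of 9 on the higher side. The shares of all genes beside these counts were 5.93% to 10.3% lower and 5.95% to 8.64% higher. At the thresholds, the replicate block gave 98 genes lower, 135 higher and 0 members. Scaling by total recovered reads moved the median of all genes to -0.05. FOSB, with 108 to 217 reads, and KIF26B, with 8 to 73, are the values most limited by depth.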

Other observations

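The 13 genes tested in the stress list did not share a direction in KIF26B siRNA replicate 2. DDIT3, CHAC1, TRIB3 and DNAJB1 were highest there, like ATF3, whereas HSPH1, HSPA8 and HSPA1B were lowest there. HSPH1 was at 19.7 and 21.9 FPKM in the controls, 18.2 FPKM in replicate 1 and 10.3 FPKM in replicate 2. DDIT3 and CHAC1 are described here, chosen after their values were seen. DDIT3, which encodes the stress factor CHOP, was at 5.69 and 4.56 FPKM in the controls, 4.94 FPKM in KIF26B siRNA replicate 1 and 26.4 FPKM in replicate 2. CHAC1, a glutathione-degrading enzyme of the same response, was at 1.93 and 1.91 FPKM in the controls, 1.91 FPKM in replicate 1 and 4.46 FPKM in replicate 2. ATF3 was at 14.7 FPKM there, against 9.71 to 11.4 FPKM in the other 3 libraries. Of the AP-1 targets, CXCL8, which encodes interleukin-8, had the opposite pattern, with 3.65 and 4.38 FPKM in the controls, 3.46 FPKM in replicate 1 and 0.803 FPKM in replicate 2. MMP3 was at 0 in all 4 libraries, and MMP1, MMP10 and MMP13 were at most at 0.103 FPKM.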
